A study of Mus musculus with 21 samples.

Results

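Primary cilium and hedgehog genes were followed through the culture of mouse fat stromal cells: Smo, Dync2h1, Tmem67, Invs, Anks6, Cep41 and Cep126. These 7 genes were taken by symbol from the 30961 gene models of the deposited expression table, and each symbol matched 1 gene model. RNA-seq was run on the stromal vascular fraction of the inguinal fat pad under the skin, the mixed stromal, vascular and immune cells left when digested fat is freed of adipocytes, taken without lymph nodes from female C57BL/6J mice of 8 to 12 weeks. All groups share this source, with no allele or drug added. The day 0 group is the fresh fraction, and the groups of days 3, 7, 14, 21 and 28 are primary culture (P0) on uncoated plastic in medium with serum. The last group (P1) was passaged from day 28 cells and grown for 28 days more, so passage and total time in culture cannot be told apart. There were 3 libraries in each of the 7 groups. What the replicate numbers stand for (animals, pools or dishes) is not stated in the labels, and p-values therefore reflect the spread between these libraries alone, which may be technical.

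The primary cilium is a single, non-motile projection that a resting cell builds on its mother centriole, which then serves as the basal body, and takes down before division. Intraflagellar transport carries cargo along its microtubule axoneme, with kinesin motors running outwards and the dynein-2 motor running back, and a transition zone at the base controls what enters. Vertebrate hedgehog signalling runs through it: Smo, the membrane protein that passes the signal on, gathers in the cilium once the receptor Ptch1 is bound by ligand, and Gli transcription factors are then processed differently. In fat, hedgehog signalling is known for restraining the conversion of stromal progenitors into adipocytes.

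A pair of limits of the table comes first. The symbols match the values next to them only in parts of the table. This was judged from the order and spacing of genes along the chromosomes, set against the levels of the gene models in these same data. By that check 550 of the 16184 protein-coding symbols were in place, lying on chromosomes 4, 6, 9, 15 and 18. All 7 genes were among these, also when the allowed offset was cut from 1000 to 200 bases. The 7 genes were chosen with earlier results of these data known. Their full placement can follow from that choice and is not further evidence for their symbols. The other limit is a floor. Values are read here as levels, meaning reads multiplied by 1 factor per library, with low levels set to 30 and levels of 0 reads set to 16 before the log2. The floor stood for 18 to 25 reads in the day 0 libraries and 25 to 40 in the others, and reads above the floor came to 2650232 to 4003360 per library. Day 0 libraries had 7387 to 7408 gene models over the floor, and later libraries 4458 to 5724. Anks6 was on the floor in the 3 day 0 libraries, and the other 6 genes never were.

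The genes lie on 3 chromosomes of GRCm38, by the GENCODE M21 annotation. Smo (ENSMUSG00000001761) spans chr6:29735503-29761365 on the plus strand with 5.62 kb of exon, and Cep41 (ENSMUSG00000029790) spans chr6:30653457-30693749 on the minus strand with 4.98 kb. Invs (ENSMUSG00000028344) spans chr4:48279760-48431954 on the plus strand with 11.43 kb, Anks6 (ENSMUSG00000066191) chr4:47015669-47057427 on the minus strand with 5.36 kb, and Tmem67 (ENSMUSG00000049488) chr4:12039355-12090020 on the minus strand with 7.74 kb. Dync2h1 (ENSMUSG00000047193) spans chr9:6928503-7184446 on the minus strand with 16.35 kb in 91 exon blocks, and Cep126 (ENSMUSG00000040729) lies near it at chr9:8076461-8134294 on the same strand with 4.62 kb. The library kit does not mark strand. Tmem67 shares 3.73% of its exon bases with Rbm12b2 and 1.69% with the antisense gene Gm11842, and Invs shares 1.98% with Tex10, so those reads cannot be told apart.

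RFX transcription factors are known regulators of ciliary genes in worms and mammals and bind a palindromic motif, the X-box. The promoters are shown so that genes that fell in culture can be set beside genes that did not. RefSeq promoters of GRCm38.p6, running from 250 bases before to 50 bases after the start, matched 5 of the 7 genes by symbol (Smo, Invs, Dync2h1, Cep41 and Cep126), with a second start for Cep126. Printed 5′ to 3′ on the gene's strand, with motif matches in capitals, they are Dync2h1 at chr9:7177009-7177308 (minus), Cep126 at chr9:8134397-8134696 (minus), Cep41 at chr6:30693700-30693999 (minus) and Smo at chr6:29735247-29735546 (plus).
Dync2h1: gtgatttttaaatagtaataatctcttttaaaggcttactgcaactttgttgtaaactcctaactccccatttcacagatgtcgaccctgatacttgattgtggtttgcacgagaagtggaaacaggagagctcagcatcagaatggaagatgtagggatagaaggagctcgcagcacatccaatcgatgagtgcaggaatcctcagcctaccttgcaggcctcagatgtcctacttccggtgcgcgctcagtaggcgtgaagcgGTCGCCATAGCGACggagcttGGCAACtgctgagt
Cep126: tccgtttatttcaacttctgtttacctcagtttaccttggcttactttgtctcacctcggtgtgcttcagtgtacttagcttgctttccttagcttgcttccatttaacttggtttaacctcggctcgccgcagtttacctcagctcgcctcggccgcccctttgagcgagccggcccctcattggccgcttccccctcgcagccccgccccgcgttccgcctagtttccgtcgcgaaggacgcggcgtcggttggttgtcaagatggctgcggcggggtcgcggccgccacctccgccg
Cep41: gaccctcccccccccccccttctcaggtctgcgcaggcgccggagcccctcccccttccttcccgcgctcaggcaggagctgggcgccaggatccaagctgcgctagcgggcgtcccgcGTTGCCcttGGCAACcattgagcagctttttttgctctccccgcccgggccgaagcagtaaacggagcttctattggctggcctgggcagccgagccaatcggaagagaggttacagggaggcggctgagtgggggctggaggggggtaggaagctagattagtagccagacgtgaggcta
Smo: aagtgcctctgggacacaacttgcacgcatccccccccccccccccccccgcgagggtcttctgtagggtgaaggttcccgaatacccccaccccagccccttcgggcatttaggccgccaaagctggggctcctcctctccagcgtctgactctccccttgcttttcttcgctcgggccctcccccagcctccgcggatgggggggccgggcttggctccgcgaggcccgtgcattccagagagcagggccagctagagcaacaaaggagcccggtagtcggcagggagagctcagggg
The search covered both strands for the X-box consensus known from Caenorhabditis elegans and for its arm GTTGCC, which reads GGCAAC on the other strand and can overlap an X-box. Dync2h1 held an X-box match (GTCGCCATAGCGAC, 15 to 28 bases after the start, read on both strands) and an arm 36 to 41 bases after it. The RefSeq start used for Dync2h1 lies inside the longer GENCODE gene. Cep41 held the arm on each strand, GTTGCC from -131 and GGCAAC from -122, with 3 bases between. The X-box consensus searched fixes the bases AT between its arms, so this pair could not match it. The share of promoters with such a pair was not counted. No match was in the windows of Smo, Invs or either start of Cep126. Of all 32851 promoters in the table, 1.86% held the X-box and 12.5% the arm. Dync2h1, which fell, and Cep41, which rose on some days, both held matches, and Cep126, which also fell, held none in these windows. Tmem67, which fell, and Anks6, which rose on most days, had no promoter matched by symbol and were not searched. Any part of RFX factors in these changes was not tested.

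Against the fresh fraction, 3 of the 7 genes were lower on every day of culture: Dync2h1, Tmem67 and Cep126, which make the retrograde motor, a transition zone protein and a centrosomal protein. Anks6 and Cep41 were called higher on some or most days, Smo was called slightly higher on 1 day, and Invs was not called on any day at the scale of the deposited values. Tests were moderated limma fits over all 7767 gene models above the floor in at least 3 libraries, with p adjusted over all of them. At day 3, 0 of the 7 genes were called higher and 3 lower, beside 51.4% of all gene models called (10.9% higher and 40.5% lower). At an unadjusted p under 0.05, Smo and Cep41 were higher at day 3, but the share of all gene models under that threshold was not counted. At days 7, 14, 21 and 28, 2 were higher and 3 lower each time, beside 54.4%, 65.3%, 59.3% and 60.3% of all gene models called. The higher calls made up 12.1%, 9.40%, 12.5% and 13.2% of gene models on those days, and the lower calls 42.4%, 55.9%, 46.8% and 47.1%. The share of the 7 genes called was thus near the background at days 7 to 28, and lower calls were the common direction in the table. The median log2 change of the 7 genes was 0.21 at day 3 and -0.03 at day 28, beside -0.42 and -0.54 over all gene models tested.

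**Figure D1:**
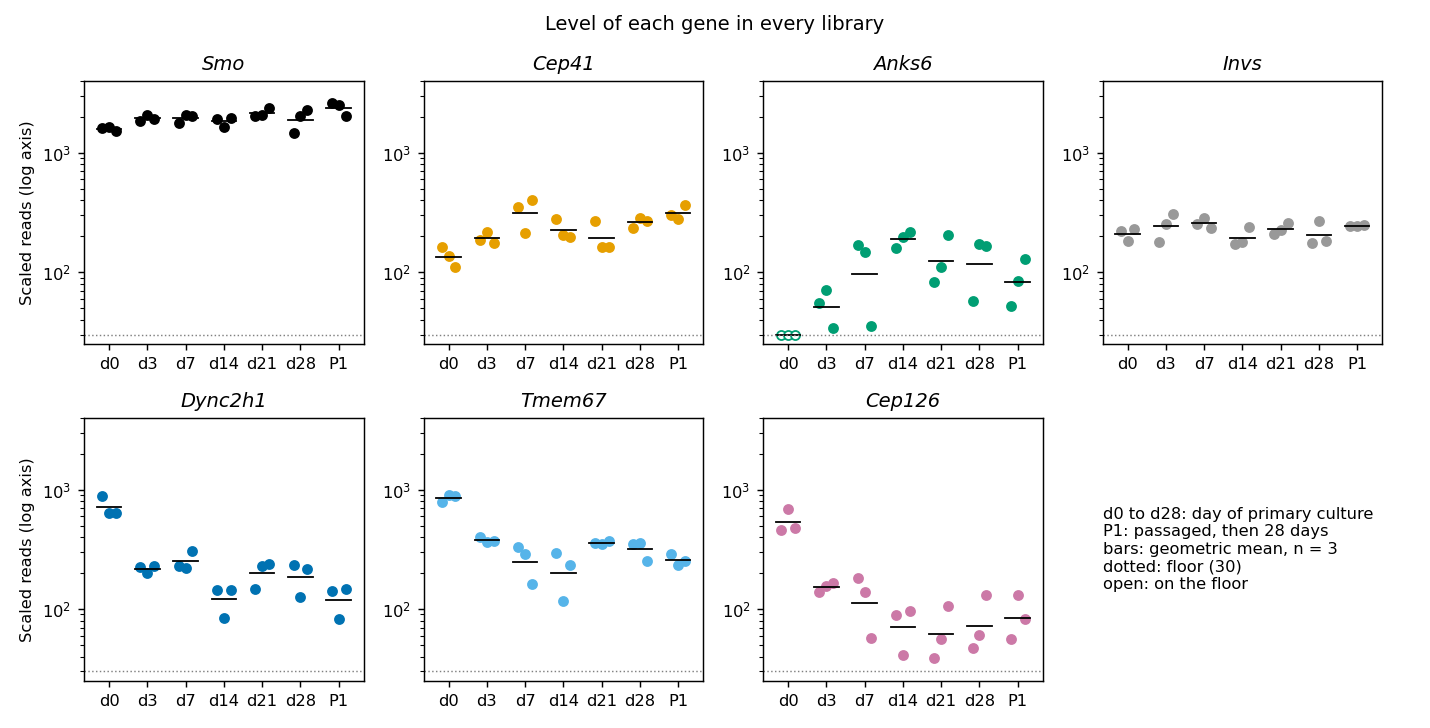
Level (reads times 1 factor per library, log axis) of each gene in every library, by group on the x axis (d0 to d28, day of primary culture; P1, passaged cells), with points for libraries, bars for the geometric mean of 3 libraries and open points on the floor. Dync2h1, Tmem67 and Cep126 were highest in the 3 day 0 libraries with no overlap with any later group, Anks6 was on the floor only at day 0, and Smo stayed between 1471 and 2627 throughout.

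The scale of the libraries bears on these directions. Among the 3172 gene models that no library had on the floor (called always-detected below), the median log2 change from day 0 was -0.26, -0.25, -0.56, -0.34 and -0.33 at days 3, 7, 14, 21 and 28 as deposited. It was 0.24 to 0.30 after quantile normalization and 0.00 to 0.07 after the median level was set equal between libraries. The share of all calls that were higher moved with it, from 14.4% to 22.2% as deposited to 53% to 54.5% after quantile normalization and 37.7% to 41.6% after median scaling. Dync2h1, Tmem67 and Cep126 were called lower at all 5 days under each of these scalings. Smo and Cep41 were called higher at all 5 days under both, and Invs at all 5 days after quantile normalization and at days 3, 7 and 21 after median scaling. Relative to the median of always-detected gene models, the day 28 log2 changes as deposited were -2.55 for Cep126, -1.61 for Dync2h1, -1.12 for Tmem67, 0.30 for Invs, 0.58 for Smo, 1.29 for Cep41 and 2.31 for Anks6.

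**Figure D2:**
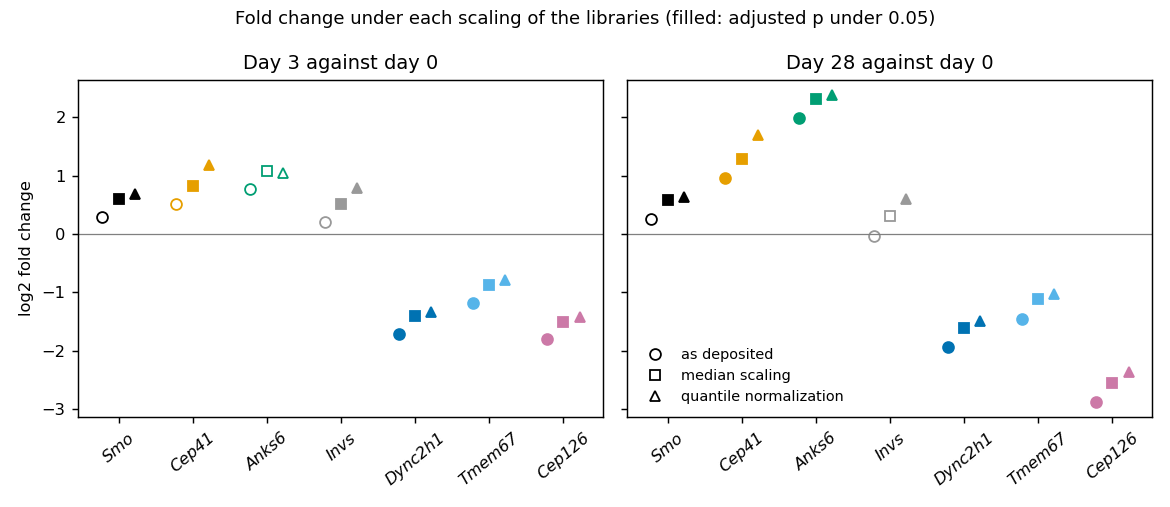
Log2 fold change (y axis) of each gene at day 3 and day 28 against day 0, as deposited (circles), after median scaling (squares) and after quantile normalization (triangles), filled where the adjusted p was under 0.05. The 3 lower genes were called under each scaling, while Smo and Invs went from not called as deposited to called higher after quantile normalization on both days.

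Smo was the most abundant of the 7 genes per kilobase of exon, with a geometric mean level of 285 per kb at day 0, beside 116 for Cep126, 111 for Tmem67, 43.6 for Dync2h1, 27.2 for Cep41 and 18.4 for Invs. The libraries held 1624, 1651 and 1529 (day 0), 1864, 2091 and 1937 (day 3), and 1796, 2087 and 2038 (day 7). Later ones held 1937, 1661 and 1948 (day 14), 2050, 2071 and 2387 (day 21), 1471, 2032 and 2307 (day 28), and 2627, 2519 and 2022 (P1). All libraries of days 3 to 21 were above those of day 0, by narrow margins, and 1 day 28 library was below them.

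In the fit of all groups at the deposited scale, the change of Smo was called only at day 21. The log2 change was 0.44 ± 0.14 (SE, adjusted p = 0.0123), and without day 21 replicate 3 it was 0.36 with an adjusted p of 0.0539. At days 3, 7, 14 and 28 the log2 changes were 0.29, 0.30, 0.20 and 0.25 with adjusted p of 0.0875, 0.079, 0.208 and 0.13. In limma fits of the 2 groups alone, Smo was called at day 3 (adjusted p = 0.0141) and day 7 (adjusted p = 0.0226). The single call therefore does not mark a rise particular to day 21. At the deposited scale the 95% interval at day 28 ran from -0.04 to 0.54, so a rise within that range was not told from none. Without day 28 replicate 1 the change was 0.44 with an adjusted p of 0.00583. The day 28 change lay outside that interval after quantile normalization (0.64, adjusted p = 0.000215) and after median scaling (0.59, adjusted p = 0.000467). From P1 at the top to day 14, neighbouring groups overlapped in the order of levels, and only day 0, the lowest, did not overlap the group above it. The hedgehog list held 40 other genes (ligands, Gli factors, Sufu and target genes among them), and 0 of them had a symbol in place, so the response of the pathway's targets was not analysed here.

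Dync2h1, the heavy chain of the dynein-2 motor that returns cargo from the tip of the cilium, fell on every culture day. The day 0 levels were 887, 641 and 638. The 3 libraries of day 3 held 225, 202 and 230, those of day 7 held 231, 221 and 306, and those of day 14 held 146, 84.4 and 144. The day 21 libraries held 146, 229 and 236, the day 28 libraries 232, 127 and 217, and P1 142, 81.9 and 147. The lowest day 0 library held more than 2 times the level of the highest later one, and day 14 and P1 held the lowest values.

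The log2 change of Dync2h1 from day 0 was -1.71 ± 0.29 at day 3 (adjusted p = 8.79e-05), -1.51 at day 7, -2.56 ± 0.29 at day 14 (adjusted p = 6.52e-07), -1.84 at day 21 and -1.94 ± 0.29 at day 28 (adjusted p = 1.69e-05). It was the only one of the 7 genes called between successive days, at -1.05 ± 0.29 from day 7 to day 14 (adjusted p = 0.0133), where 24.3% of all gene models were called. The median of always-detected gene models was -0.31 in that step. After quantile normalization the change was -0.70 with an adjusted p of 0.0598. It was also not called in a fit of those 2 groups alone (adjusted p = 0.0644), without day 7 replicate 3 (-0.91, adjusted p = 0.059) or without day 14 replicate 2 (-0.79, adjusted p = 0.077). In the order of levels, day 0 stood apart from the next group, day 7, and all later neighbours overlapped.

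Tmem67, or meckelin, a membrane protein of the transition zone, showed the smallest fall of the 3 at day 28. Day 0 libraries held 785, 905 and 892, day 3 libraries 404, 361 and 373, day 7 libraries 329, 290 and 163, and day 14 libraries 295, 117 and 232. Later values were 354, 349 and 371 (day 21), 350, 355 and 252 (day 28), and 289, 235 and 252 (P1). No later library reached a day 0 library, and the libraries of days 7 and 14 spread the most.

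For Tmem67 the log2 change from day 0 was -1.18 ± 0.28 at day 3 (adjusted p = 0.00171), -1.78 at day 7, -2.10 ± 0.28 at day 14 (adjusted p = 4.21e-06), -1.26 at day 21 and -1.45 ± 0.28 at day 28 (adjusted p = 0.000234). Between day 14 and day 21 all libraries of the later day were higher, with a log2 change of 0.84 that was not called (adjusted p = 0.0872), and without day 14 replicate 1 it was 1.12 with an adjusted p of 0.028. Day 0 and day 3 did not overlap in the order of levels, and each lower pair of neighbours did.

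Anks6 and Invs belong to the inversin compartment, a stretch of the proximal cilium that bears the name of the Invs product inversin. Anks6 is an ankyrin repeat protein that binds the kinase Nek8 there. It was the only one of the 7 genes on the floor, in all 3 day 0 libraries, with fewer reads than the floor stands for. Levels then read 55.7, 70.6 and 34.3 (day 3), 168, 149 and 35.4 (day 7), and 161, 197 and 218 (day 14). The last groups held 82.5, 112 and 205 (day 21), 57.5, 172 and 167 (day 28), and 52.7, 85.1 and 129 (P1). Every library after day 0 was above the floor, and day 14 held the tightest high values.

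With day 0 set at the floor of 30, Anks6 was at least 1.71-fold higher at day 3, which was not called (adjusted p = 0.249). It was at least 3.2-fold higher at day 7 (adjusted p = 0.0146), 6.35-fold at day 14 (0.000381), 4.12-fold at day 21 (0.00376) and 3.94-fold at day 28 (0.00463), with values in parentheses being adjusted p. The day 7 call rested on a wide spread: it was lost without replicate 1 (adjusted p = 0.0816), without replicate 2 (0.0715) and in a fit of the 2 groups alone (0.0742), and without replicate 3 the log2 change was 2.40 in place of 1.68. Below day 14 all neighbours in the order of levels overlapped down to day 3, and day 3 did not overlap day 0.

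Invs stayed within a narrow band. Its lowest and highest libraries were 182 and 230 (day 0), 179 and 310 (day 3), 234 and 286 (day 7), 173 and 241 (day 14), 209 and 260 (day 21), 176 and 269 (day 28), and 243 and 247 (P1). Each pair of neighbours in the order of its levels overlapped. The log2 changes from day 0 were 0.21, 0.29, -0.11, 0.13 and -0.03 at days 3, 7, 14, 21 and 28, with adjusted p from 0.24 to 0.909. At day 28 the 95% interval at the deposited scale was -0.45 to 0.39, so a change in either direction smaller than that could not be told from none. The day 28 change was 0.60 after quantile normalization (adjusted p = 0.0194), outside that interval, and 0.30 after median scaling (adjusted p = 0.215).

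Cep41 and Cep126 are centrosomal proteins. Cep41 is needed for the glutamylation of axonemal tubulin, and Cep126 has been tied to microtubule organisation and cilium formation in human cell lines. They moved in opposite directions. Cep41 held levels of 164, 137 and 110 (day 0), 188, 218 and 176 (day 3), 349, 215 and 403 (day 7), and 282, 204 and 198 (day 14). It then held 269, 164 and 163 (day 21), 234, 288 and 268 (day 28), and 303, 282 and 364 (P1). The day 0 libraries were below those of every other group but day 21, where 2 libraries came down to the highest day 0 value.

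Cep41 rose by a log2 change of 1.21 ± 0.24 at day 7 (adjusted p = 0.000412), 0.73 ± 0.24 at day 14 (adjusted p = 0.0132) and 0.96 ± 0.24 at day 28 (adjusted p = 0.00247). At days 3 and 21 the change was 0.51 each time and was not called (adjusted p of 0.0853 and 0.0766). Both days were called after quantile normalization (1.19 and 1.26, adjusted p of 0.00129 and 0.000649) and after median scaling (0.82 and 0.88, adjusted p of 0.0156 and 0.00871). The day 14 call was lost without day 0 replicate 3 (adjusted p = 0.067) or day 14 replicate 1 (adjusted p = 0.069), and the day 21 change was 0.65 with an adjusted p of 0.0477 without day 0 replicate 1. Leaving out day 7 replicate 2, the lowest of its group, gave a call for the rise from day 3 to day 7 (0.96, adjusted p = 0.0214) and for the fall from day 7 to day 14 (-0.74, adjusted p = 0.0341), neither of which was called with all libraries (0.69 and -0.47, adjusted p of 0.104 and 0.175). Only the lowest group, day 0, did not overlap its neighbour in the order of levels.

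Cep126 fell the furthest of the 7 genes. Libraries held 460, 688 and 480 (day 0), 138, 156 and 166 (day 3), 180, 140 and 56.8 (day 7), and 89.1, 41.4 and 96.1 (day 14). The rest held 39.1, 55.9 and 105 (day 21), 47.5, 60.7 and 131 (day 28), and 55.6, 131 and 82.5 (P1). From day 14 on, the libraries of a group differed by more than the groups did, with 47 to 122 reads in each library of days 21 and 28, the lowest not far above the floor.

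The log2 change of Cep126 from day 0 was -1.80 ± 0.48 at day 3 (adjusted p = 0.00479), -2.24 at day 7, -2.92 at day 14, -3.12 ± 0.48 at day 21 (adjusted p = 2.95e-05) and -2.88 ± 0.48 at day 28 (adjusted p = 6.64e-05). All libraries after day 0 were below the day 0 libraries. Apart from the step from day 0 to day 3, neighbouring groups overlapped in the order of levels.

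**Figure D3:**
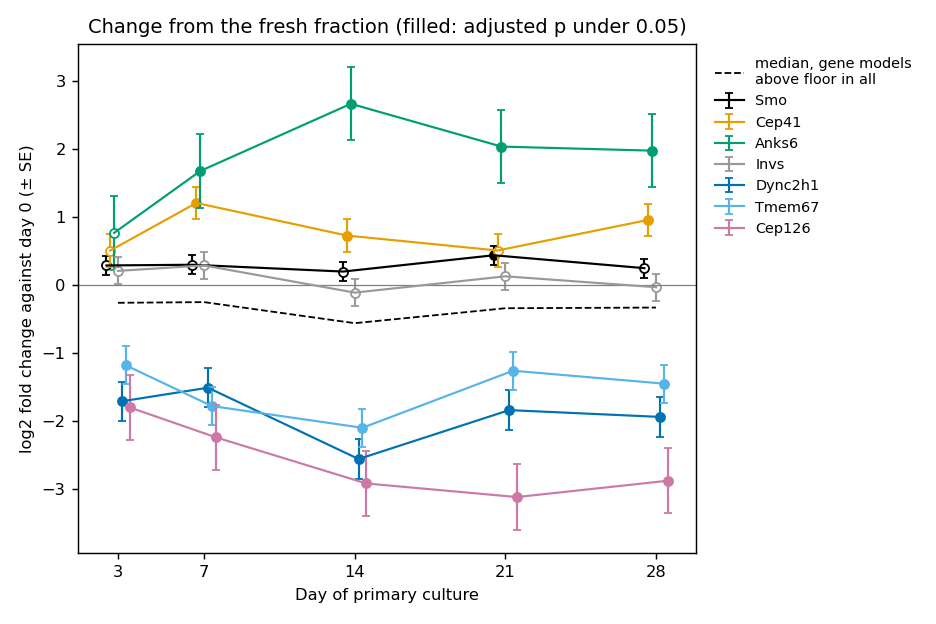
Log2 fold change against day 0 (y axis, ± SE from the shared fit) of each gene by day of primary culture (x axis), filled where the adjusted p was under 0.05, with the median of always-detected gene models as a dashed line. The 3 lower genes lay between -1.18 and -3.12 and the dashed line between -0.25 and -0.56, and all 5 comparisons share the same day 0 libraries.

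Across days 0 to 28 of primary culture, a moderated F test called 5 of the 7 genes, beside 71.4% of all gene models. The adjusted p was 1.41e-05 for Dync2h1, 6.85e-05 for Tmem67, 0.000166 for Cep126, 0.00336 for Anks6 and 0.00434 for Cep41, and Smo (0.138) and Invs (0.408) were not called. Counted by libraries that did not overlap day 0, 6, 7, 6, 5 and 5 of the 7 genes stood apart at days 3, 7, 14, 21 and 28, beside 59.3%, 59.6%, 67.3%, 61.2% and 61.9% of all gene models.

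Besides the call of Dync2h1 from day 7 to day 14, where Anks6 changed by 0.99 without a call (adjusted p = 0.214), no gene was called between successive days. In the other steps few gene models were called at all, so the absence of calls among 7 genes is near the background and says nothing particular of them. From day 3 to day 7 the limma test called none of the 7 genes, beside 7.11% of all gene models, and at an unadjusted p under 0.05 Cep41 was higher and Tmem67 lower. The share of all gene models under the unadjusted threshold was not counted, here or in the comparisons below. The unadjusted results therefore have no background beside them. From day 14 to day 21 none was called, beside 6.28% called over all gene models, and Dync2h1 and Tmem67 were higher at an unadjusted p under 0.05. The median of always-detected gene models moved by 0.20 in that step, and relative to it the log2 changes of Smo, Dync2h1 and Tmem67 were 0.03, 0.52 and 0.64. From day 21 to day 28 none was called, beside 0.103% of all gene models, and 0 had an unadjusted p under 0.05. Between passaged cells and day 28 primary culture none was called, beside 14.7% of all gene models, and at an unadjusted p under 0.05 Smo was higher and Dync2h1 lower. The log2 changes ran from -0.63 ± 0.29 for Dync2h1 (95% interval -1.24 to -0.02, adjusted p = 0.165) to 0.32 ± 0.14 for Smo (0.03 to 0.61, adjusted p = 0.145). Smo was called higher in P1 after quantile normalization (0.55), after median scaling (0.65) and without day 28 replicate 3 (0.46, adjusted p = 0.0495).

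Dync2h1, Tmem67 and Cep126 went together over the 21 libraries mainly through day 0. The Pearson correlation of their log2 levels was 0.79 for Dync2h1 and Tmem67, 0.77 for Tmem67 and Cep126 and 0.75 for Dync2h1 and Cep126, and in the 18 libraries without day 0 it was 0.42, 0.33 and 0.28. These are descriptions, since libraries of a group share their source and all points share the scaling. Of 450 tested genes with a symbol in place, the most like Dync2h1 were Zcchc7 (r = 0.96), Dnaja1 (0.93) and Vps13b (0.93). For Tmem67 they were Cpne3 (0.88), Hilpda (0.88) and Sub1 (0.87), and for Cep126 Phf14 (0.88), Tac1 (0.88) and Sub1 (0.87). Those of Anks6 were Npr2 (0.82), Gng10 (0.79) and Col1a2 (0.78), and those of Cep41 Gdf6 (0.68), Npr3 (0.66) and C1qtnf3 (0.66). Smo and Invs had no close match, with Gata6 (0.70), Peg10 (0.62) and Gpr85 (0.61) for Smo and Slc26a7 (0.56), Tmem209 (0.54) and Fam3c (0.49) for Invs. The symbol of Gata6 was in place only under the wider limit of 1000 bases. The correlations with these other genes were not recomputed without day 0. At day 28, 47.1% of all gene models were called lower than at day 0. A high r with Dync2h1, Tmem67 or Cep126 therefore need not be particular to the genes named.

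The other cilium genes could hardly be read. Of 127 genes in a list of transport subunits, transition zone, basal body and ciliary signalling genes, 2 had a symbol in place. Both were called lower at day 28 against day 0, beside 47.1% of all gene models called lower. A count over 2 genes therefore says nothing particular of cilium genes. Dnai1, an intermediate chain of the outer dynein arms of motile cilia, held 755, 725 and 988 in the day 0 libraries and was on the floor in all libraries of days 3, 7, 14 and 28 and P1, at least 27.2-fold lower, with 1 library at 40.3 at day 21. Its adjusted p at day 3 was 7.03e-11, and it shares 15 exon bases with Enho on the other strand. Other motile cilium and basal body genes in place, listed after the values were seen, differed from it. In the 3 day 0 libraries Dnah5 was at 16 (0 reads), and Cfap206, Spag8, Ccdc180, Iqub, Ttc23l and Rgs22 were on a floor. Spag1 and Cibar1 were above the floor there. The level of Dnai1 was therefore not read as a sign of motile cilia. Kif24, a kinesin of the mother centriole that restrains cilium formation, held levels of 159, 76.8 and 117 (day 0) and 160, 53.5 and 102 (day 3), with a log2 change of -0.24 that was not called (adjusted p = 0.642). At day 28 it was at 71.2, 33.1 and 30, the last of these on the floor, with a log2 change of -1.45 ± 0.40 (adjusted p = 0.00462) whose size depends on the floor.

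The make-up of the cultures changed at the same time. In bulk RNA, fewer cells of a type and less RNA per cell cannot be told apart. The summed level of the epithelial markers with a symbol in place, 3 of 13 (Esrp1, Grhl2 and Prlr), spanned 30655 to 70269 at day 0, 3274 to 3416 at day 3 and 0 to 43 at day 28, with values on the floor counted as 0. Prlr made up most of the day 0 sum (27341, 28296 and 66942) and of its fall by day 3 (485, 628 and 731). At day 3 Grhl2 was lower by a log2 change of -0.66 (adjusted p = 0.0305), and Esrp1 was not called (-0.24, adjusted p = 0.49). The adipocyte markers, 2 of 7 (Lep and Aqp7), were at 1638 to 1762 at day 0 and at 0 at days 3 and 28. For the fibroblast and stromal markers, 3 of 9, the sum was 7864 to 9016 at day 0, 18905 to 22771 at day 3 and 131705 to 171284 at day 28. This sum is mostly Col1a2, and at day 3 Col1a2 (1.28) and Svep1 (1.77) were called higher while Col15a1 was called lower (-1.64, adjusted p = 0.000198). The part of these shifts in the falls of Dync2h1, Tmem67 and Cep126 or the rises of Cep41 and Anks6 was not tested.

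Leukocyte markers, 7 of 13, summed to 2555 to 2872 at day 0, 1680 to 1912 at day 3, 4876 to 6740 at day 28 and 1048 to 1375 in P1, and of these Pax5 and Sit1 were on the floor in all libraries. The other 5 moved apart at day 3, where Tfec (0.97) and Irf5 (1.08) were called higher and Lyn (-0.79), Cd72 (-2.89) and Otulinl (-1.14) lower. At day 28 all 5 but Lyn (0.31, adjusted p = 0.0679) were called higher. Cycling-cell markers, 4 of 9, were at 916 to 1117 at day 0, 3794 to 4263 at day 3 and 509 to 1047 at day 28. All 4 were called higher at day 3, and at day 28 Ccne2 was called lower (-0.51, adjusted p = 0.0197) and the other 3 were not called. The part of leukocyte or cycling-cell shifts in the levels of the 7 genes was not tested. No endothelial or mural marker, of 7 and 6, had a symbol in place, and of 5 markers of multiciliated cells the 1 in place was Dnai1. Defining stromal genes of the labelled fraction such as Pdgfra and Dcn had no symbol in place, so the label was checked on Col1a2, Col15a1 and Svep1 only.

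**Figure D4:**
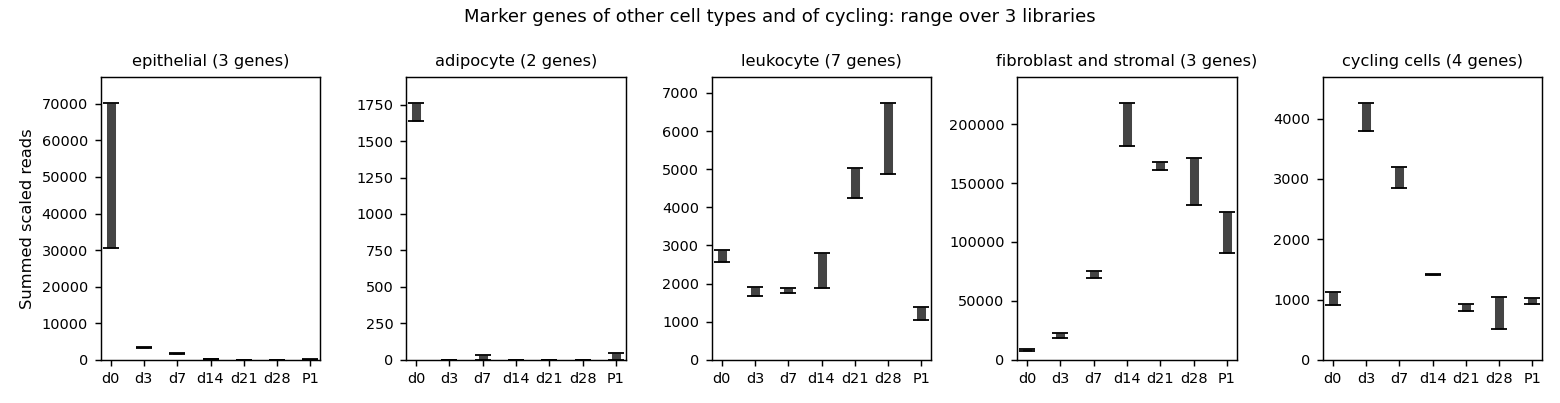
Summed level (linear y axis, values on the floor counted as 0) of the marker genes of each cell type with a symbol in place, by group (x axis), with bars from the lowest to the highest of 3 libraries. The epithelial and adipocyte sums were highest at day 0, the cycling sum at day 3, and the stromal sum, which is mostly Col1a2, at day 14. Single genes differed from the sums. Svep1 held 4383, 2830 and 4275 at day 14 and 6746, 8716 and 9811 at day 21. Col15a1 held 556, 485 and 525 at day 14 and 600, 922 and 1114 at day 28. Ccne2 held 667, 760 and 967 at day 3 and 1220, 891 and 958 at day 7.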

How the data were processed

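Total RNA with an RNA integrity number over 8 was turned into amplified cDNA from 15 ng, per the labels' protocols, with a kit that does not mark strand. Either of 2 RNA extraction kits was used, and the labels do not tie them to libraries. The deposited data are log2 values, 1 table with 30961 gene models and 21 library columns, all used. Values of each gene model sum to 0, and their steps repeat 2 floors (30 and 16), from which the factor of each library and whole reads were recovered for 30466 gene models (100.0% of 14423 low values whole within 0.1 read). The submitters' processing notes name GRCm39. The aligner, the counter and the scaling were not given in the sources used here. Levels depend on the floors being 16 and 30, which cancels in comparisons of groups.

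Symbols were checked with a hidden Markov model over offsets of up to 1.6 Mb. GENCODE M21 (GRCm38) was used for names, order and spacing. The model set each gene model's highest level (on the floor, up to 300 or over 300) against its exon overlap at each offset. Symbols were kept at a posterior of at least 0.9 within 1000 bases. Coordinates in the text are those of GRCm38 and none was converted. On simulated data with 6129 gene models the check kept 3435, 12 of them wrongly. Of the simulated gene models 3252 had no offset, a larger share than the 550 of 16184 symbols in place here. The share kept wrongly therefore does not carry over to this table and may be larger here.

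Differences were tested with limma 3.58.1 (trend) in R 4.3.3 on recovered log2 levels, with no pseudocount, in 1 fit of 21 libraries and 7 groups, with Benjamini-Hochberg adjustment over 7767 gene models and calls under 0.05. A count test was not run, since reads under the floor are missing. On simulated libraries of days 3 and 0 (7767 gene models), 55 of 100 genes changed by 1 log2 unit were recovered, and 86 of 100 changed by 2. False calls came to 5 of 3328 unchanged gene models with no value on the floor and to 68 of 4239 with one, which bears on Anks6 here. Python 3.11.15 with numpy 2.4.6, pandas 2.3.3, scipy 1.17.1 and matplotlib 3.10.9 did the other steps. Named genes were the 7 members, the other cilium and hedgehog genes with a symbol in place, and the 3 genes most correlated with each member. The members and lists were chosen with earlier results of these data known. A short list of motile cilium and basal body genes was added after the values were seen.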

Additional observations from a re-analysis of the deposited data

How the results depend on the processing

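Alternatives were quantile normalization, scaling to the median gene model, filters of at least 1 or 6 libraries above the floor, a pseudocount of 16, a single floor, a fit of the groups compared alone, a replicate block and each library left out in turn. Of the values recomputed, 911 kept their direction and side of the threshold, 28 crossed to called, 10 lost the call and 31 changed sign. All 31 were uncalled as deposited, and 2 of them were called in the alternative. These were Invs after quantile normalization, at 0.82 at day 14 (adjusted p = 0.00257) and 0.60 at day 28 (adjusted p = 0.0194) against day 0. The uncalled sign changes under a scaling were, after quantile normalization, Smo from day 7 to day 14 (0.09), Invs from day 14 to day 21 (-0.05) and Tmem67 in P1 (0.05), and, after median scaling, Invs at days 14 and 28 against day 0 (0.49 and 0.30), Smo from day 7 to day 14 (0.17) and Tmem67 in P1 (0.04). The other 22 came with a library left out. Over those fits Invs ran from -0.23 to 0.08 at day 28 against day 0. From day 3 to day 7, Smo ran from -0.04 to 0.07, Invs from -0.13 to 0.26 and Cep126 from -0.78 to 0.05. Tmem67 ran from -0.63 to 0.07 from day 7 to day 14, and Cep126 from -0.60 to 0.12 from day 14 to day 21. From day 21 to day 28, Smo ran from -0.32 to 0.00, Dync2h1 from -0.33 to 0.17, Anks6 from -0.35 to 0.46 and Cep126 from -0.19 to 0.63, and in P1 Cep126 ran from -0.10 to 0.65. The cause of these sign changes was not tested. At day 3 against day 0, 6 genes were called after quantile normalization and 6 after median scaling in place of 3. Over all 7767 gene models, 3512 and 3774 were called there, in place of 3992. From day 7 to day 14, 0 were called after quantile normalization and 0 in the fit of both groups alone in place of 1, beside 1421 and 1584 of all gene models in place of 1888. In P1 against day 28, 1 was called after quantile normalization and 1 after median scaling in place of 0, and it was Smo. Over all gene models, 850 and 784 were called in P1 under these scalings. With each library left out in turn, the number called ran from 0 to 1 from day 3 to day 7, from 0 to 2 from day 7 to day 14, from 0 to 1 from day 14 to day 21 and from 0 to 1 for P1. The highest of each stood beside 437, 1566, 393 and 748 of all 7767 gene models called. Over all gene models, the calls from day 14 to day 21 went from 488 to 151 in the fit of both groups alone and lay between 280 and 880 with a library left out. From day 21 to day 28 they went from 8 to 13 under either scaling and 15 in the fit of both groups alone, with 8 to 17 when a library was left out. For P1 they went from 1144 to 528 in the fit of both groups alone and to 748 without day 28 replicate 3. Deviations of same-numbered libraries correlated at -0.12 to 0.12. With 3 libraries in a group, and labels that do not say what a number marks, this cannot settle whether the numbers pair libraries. With the replicate block 3, 5, 5, 5 and 5 genes were called at days 3 to 28 against day 0, beside 3961, 4190, 5018, 4582 and 4631 of 7767 gene models. From day 7 to day 14 the block gave 1, beside 1815. The counts among the 7 genes were the same as without the block. All 7 symbols were in place under the limit of 200 bases, which can follow from how the 7 genes were chosen. The floor limits what can be said of Anks6 at day 0.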

Other observations

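In a list of genes of motile cilia and the basal body that was put together after the values were seen, all 9 genes had a symbol in place, and 6 of them were at or under the floor in all 21 libraries. Only 550 of the 16184 protein-coding symbols were in place, so the full placement of this late list is not a result about such genes. Cibar1, a protein of the ciliary base, was well measured, with 952, 967 and 968 (day 0), 1292, 1493 and 1433 (day 3), and 1191, 1431 and 1420 (day 28). Its log2 change from day 0 was 0.54 ± 0.10 at day 3 (adjusted p = 0.000147) and 0.48 ± 0.10 at day 28 (adjusted p = 0.000371), so this gene was higher in culture while Dync2h1, Tmem67 and Cep126 were lower. Spag1, a factor for the assembly of axonemal dyneins, held 107, 78.5 and 52.5 (day 0) and 30, 37.7 and 32.3 (day 28), with a log2 change of -1.20 ± 0.32 (adjusted p = 0.00401). The lowest day 28 library is on the floor, so the size of this change depends on the floor. At day 21 Spag1 held 30, 56.9 and 92.4 and was not called (-0.49, adjusted p = 0.199). It shares 2.19% of its exon bases with an antisense gene.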
